A study of Mus musculus with 235 samples.

Results

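The response of SJL/J mouse liver to isoniazid was measured in 8 female mice of this inbred strain, 4 given isoniazid and 4 given vehicle, among 235 liver arrays from 31 inbred strains. The 8 arrays were chosen by their labels alone, and no measured value entered the choice. The isoniazid animals received 100 mg/kg of the drug by mouth each day for 3 days, and the vehicle animals received sterile water. The mice were 8 to 10 weeks of age at the start, and left liver lobes were taken 24 hours after the last dose. Each array is a separate animal, so the spread between arrays holds the spread between mice. SJL/J carries the label of a strain with steatosis, that is, fat in liver cells, as 13 of the 31 strains do. The label belongs to the strain and says nothing of the single liver. The other 30 strains, with 227 arrays, were dosed and sampled in the same way and serve as the comparison.

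Isoniazid is a tuberculosis drug that is cleared mainly in the liver, where N-acetyltransferase acetylates it and amidases and CYP2E1 act on its products. It binds pyridoxal phosphate, the active form of vitamin B6, which is the cofactor of aminotransferases, decarboxylases and of ALAS1, the first enzyme of heme synthesis. Liver injury from the drug can go with fat in hepatocytes, whose triglyceride depends on fatty acid desaturation by SCD1, on esterification by DGAT2, on storage in droplets coated by proteins such as CIDEC, and on export in lipoproteins. Damaged or unfolded proteins are handled by the proteasome, by cytosolic heat shock proteins and, inside the endoplasmic reticulum (ER), by chaperones such as calreticulin and BiP.

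Values are log2 hybridisation levels, so a difference of 1 is a doubling, and levels of different genes are not compared. The tissue label fits its markers: the mean level of 8 hepatocyte genes lay between 13.23 and 13.46 in the 8 SJL/J arrays. Each of the 8 arrays was most like another SJL/J array at the genes that best separate strains. Arrays of the same SJL/J group correlated at 0.958 to 0.993. The 8 arrays were scanned on 6 of the study's 10 scan dates, and no date held both treatments of SJL/J, so no difference within a date could be had for the strain, and the count with scan date in the model is given below. Two-sided exact permutation tests of 6 array measures, whose smallest possible p with 4 against 4 animals is 0.0286, gave that value for the Gapdh control probes, which were 0.313 higher with isoniazid (adjusted p = 0.1716 over the 6 measures). The other 5 gave p between 0.1429 and 0.4571.

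Among the 8 livers 2 stood apart. Vehicle animal 4 had a narrower spread of values, with a standard deviation over probe sets of 2.125 against 2.276 to 2.324 in the other 7 arrays, as did 20 arrays of other strains. It lay at least 1 log2 unit below all other SJL/J arrays at 326 genes and above them at 159. Isoniazid animal 4 lay at least 1 unit above all others at 152 genes and below them at 38. Each of the other 6 arrays did so at no more than 11 genes. In isoniazid animal 4 the neutrophil, macrophage and antigen-presentation genes were high, as described below, and results are therefore also given without these animals. In whole liver, fewer cells of a type and less RNA per cell cannot be told apart.

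Isoniazid changed 88 of 18146 genes in SJL/J liver at an adjusted p under 0.05 (limma, Benjamini-Hochberg over all genes), which is 0.485% of the genes tested. Of these, 63 rose (0.347%) and 25 fell (0.138%), and 39 of the rises (0.215% of all genes) and 17 of the falls (0.0937%) were 1.5-fold or more. An unadjusted p under 0.05 was reached by 2432 genes (13.4%). The 4 isoniazid arrays lay wholly above the 4 vehicle arrays at 624 genes (3.44%) and wholly below at 360 genes (1.98%), and 51 of the 63 rises (0.281% of all genes) and 19 of the 25 falls (0.105%) were among them. The SEs and p-values of this fit use each gene's spread between animals pooled over all 62 groups. For some genes that is smaller than the spread among the SJL/J livers. Fitted on the 8 SJL/J arrays alone, no gene passed and 1429 had an unadjusted p under 0.05. Without the 21 narrow-spread arrays 45 genes rose and 61 fell, so that the excess of rises did not hold. With each array first centred on its median 35 rose and 7 fell, and with scan date as a term of the model over all strains 111 rose and 31 fell, 71 of them among the 88. The falls were led by Scd1, Dbp, Angptl8 and Cyp2c70, and the rises by Lepr, Chil3, Tubb2a, Alas1, Cgref1 and Cidec.

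The number of genes that passed depended on single animals. Without isoniazid animal 4, 8 genes rose and 3 fell, and 10 of those 11 were among the 88. They were Abhd4, Apoc2, Arf4, Golga4, Nisch, Oga, Ralgps2 and Tubb2a on the rising side and Scd1, Cyp2c70 and Glud1 on the falling side, with Ralgps2 the one not among the 88. Without vehicle animal 4, 16 rose and 28 fell. Of the rises just named, Apoc2, Golga4, Nisch, Oga and Tubb2a then did not pass (adjusted p between 0.0676 and 0.236). Vehicle animal 4 was the lowest vehicle liver at 37 of the 63 rises. Without both animals numbered 4 no gene passed, and 747 genes had an unadjusted p under 0.05. All 63 rises and all 25 falls kept their sign without isoniazid animal 4 and without both animals, at a median of 0.85 and 0.79 times the size. These genes were picked on the same livers, so the kept signs are a description and no independent evidence. The count was 55 without vehicle animal 1, 23 without vehicle animal 2 and 287 without vehicle animal 3. Leaving out isoniazid animal 1, 2 or 3 gave 66, 65 and 118 genes.

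**Figure D1:**
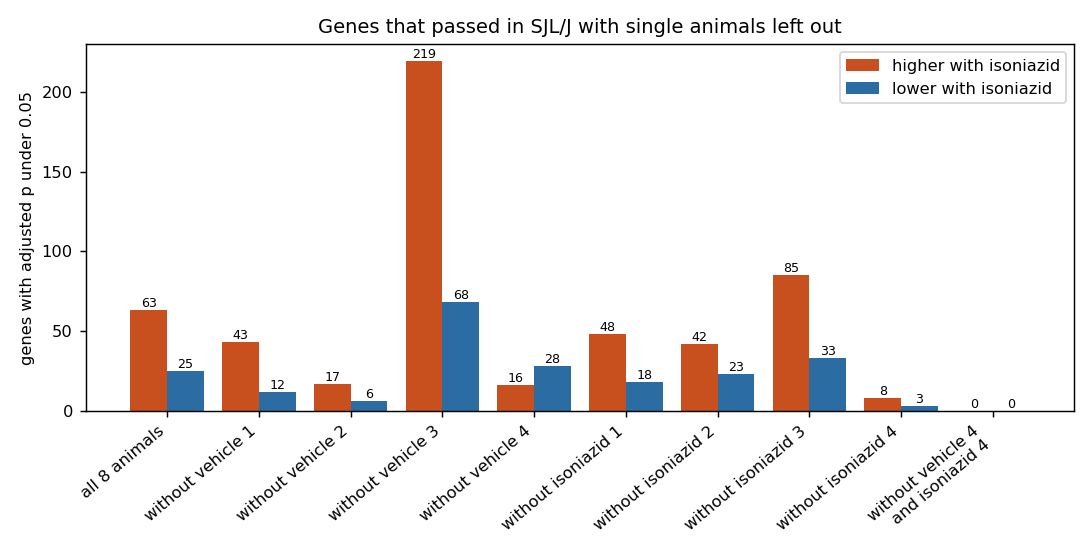
Bars show the number of genes with an adjusted p under 0.05 that were higher (orange) or lower (blue) with isoniazid in SJL/J liver, with all 8 animals and with single animals or both animals numbered 4 left out. With all 8 animals 63 genes were higher and 25 lower, against 8 and 3 without isoniazid animal 4 and none without both animals numbered 4.

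Among the genes of lipid metabolism, Scd1, Dgat2 and Angptl8 fell, and the droplet gene Cidec and the apolipoproteins Apoc2 and Apoa5 rose. Scd1, the stearoyl-CoA desaturase that makes monounsaturated fatty acids (chromosome 19), read 13.24, 13.37, 11.64 and 12.32 in the 4 vehicle livers. It read 9.89, 9.69, 11.35 and 10.26 in the 4 isoniazid livers. All isoniazid values lay below all vehicle values, but vehicle animal 3 and isoniazid animal 3 were only a little apart. The means were 12.64 ± 0.81 and 10.30 ± 0.74 (SD, n = 4 each). Scd1 thus fell by 2.35 on the log2 scale (SE 0.45, 5.09-fold, adjusted p = 0.00276), and it still passed without isoniazid animal 4, when it fell by 2.34 (adjusted p = 0.0198). Without both animals numbered 4 its adjusted p was 0.0831. Scd1 was the 1 gene of the 20 measured members of fatty acid synthesis that passed, as did 0.485% of all genes. The list's median change was 0.04 against 0.01 over all genes. Fasn, the fatty acid synthase, differed by 0.13 (adjusted p = 0.856) and Srebf1, the lipogenic transcription factor, by -0.11 (adjusted p = 0.886). The desaturase Fads2 differed by 0.62 (adjusted p = 0.123) and the elongase Elovl5 by 0.49 (adjusted p = 0.156). None of the 19 cholesterol genes and none of the 31 PPAR alpha and fatty acid oxidation genes passed, with medians of -0.13 and 0.04. The sign of the cholesterol median depended on single livers. It was 0.14 without isoniazid animal 4, -0.39 without vehicle animal 4 and -0.20 without both, against 0.24 in the other 30 strains.

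Dgat2, which adds the last acyl chain of triglyceride, had the tightest groups of the falling lipid genes. It read 12.86, 12.89, 12.83 and 12.65 with vehicle and 12.39, 12.30, 12.46 and 12.04 with isoniazid. The groups did not overlap, and Dgat2 fell by 0.51 (SE 0.11, adjusted p = 0.00555). Angptl8, a secreted inhibitor of lipoprotein lipase activity that insulin and feeding raise, was 8.57, 7.89, 9.23 and 7.34 with vehicle and 6.77, 7.29, 6.55 and 5.82 with isoniazid. It fell by 1.65 (SE 0.43, 3.15-fold, adjusted p = 0.0396), also without overlap. Cidec, which lets lipid droplets fuse and grow, moved the other way. Its vehicle values were 5.55, 5.38, 5.86 and 5.26, and its isoniazid values 6.58, 7.29, 6.42 and 7.42. Every isoniazid liver was above every vehicle liver, and Cidec rose by 1.42 (SE 0.37, 2.67-fold, adjusted p = 0.0372). Plin2, the coat protein of most hepatocyte droplets, differed by 0.62 (adjusted p = 0.158) with overlapping groups. The median of the 24 droplet and triglyceride genes was 0.07. Among them Cidec was the 1 that rose (0.347% of all genes did) and Dgat2 the 1 that fell (0.138%). Neither passed without isoniazid animal 4 (adjusted p = 0.23 for Cidec and 0.14 for Dgat2).

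Of 17 lipoprotein genes 2 rose, Apoc2 and Apoa5, both activators of lipoprotein lipase, and none fell. Over all genes 0.347% rose and 0.138% fell. Apoc2 was 11.86, 11.72, 12.19 and 11.75 with vehicle and 12.80, 12.68, 12.15 and 12.21 with isoniazid. The groups overlapped at animal 3, and the gene rose by 0.58 (SE 0.13, adjusted p = 0.0136). It passed without isoniazid animal 4 as well, with a rise of 0.66 (adjusted p = 0.0198). Without vehicle animal 4 it did not pass (0.54, adjusted p = 0.0676). Apoa5 rose by 0.31 (adjusted p = 0.0345), from the lowest vehicle level of the 31 strains. Apoa4, an apolipoprotein that in mouse liver follows triglyceride content, differed by 0.86 (adjusted p = 0.0934), with isoniazid values of 13.77, 13.77, 13.18 and 13.58 against 12.53, 12.05, 13.34 and 12.94. The fatty acid importer Cd36 differed by 0.03 (adjusted p = 0.975), the carnitine transferase Cpt1a by 0.36 (adjusted p = 0.199) and the hepatic hormone Fgf21 by 0.48 (adjusted p = 0.688).

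**Figure D2:**
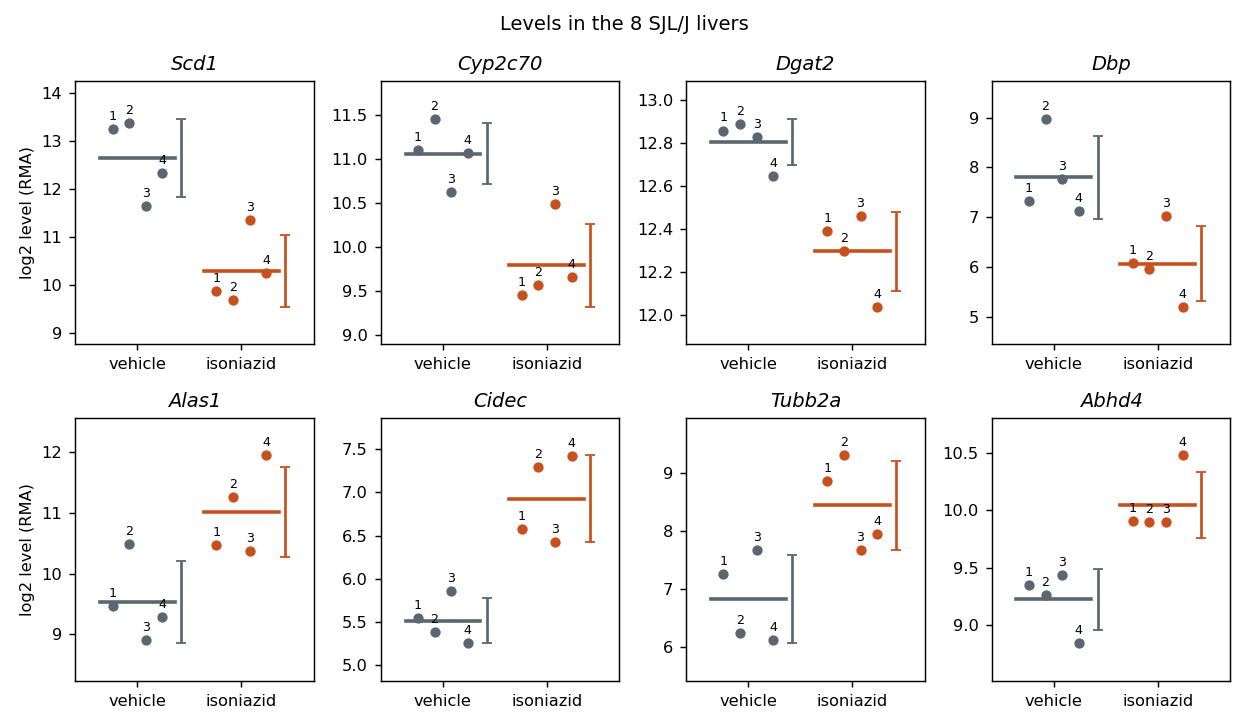
Log2 levels of 8 genes in the 8 SJL/J livers, with points numbered by animal, lines for group means and bars for the SD of 4 animals (vehicle grey, isoniazid orange). The groups do not overlap for Scd1, Cyp2c70, Dgat2, Dbp, Cidec, Tubb2a and Abhd4, and they overlap for Alas1.

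Among bile acid genes 2 of 26 fell (0.138% of all genes did) and none rose. Cyp2c70, which makes the muricholic acids of mice, read 11.10, 11.46, 10.62 and 11.07 with vehicle and 9.45, 9.57, 10.49 and 9.66 with isoniazid. The groups did not overlap, although isoniazid animal 3 came close to vehicle animal 3, as it did for Scd1. Cyp2c70 fell by 1.27 (SE 0.25, 2.41-fold, adjusted p = 0.00276), and by 1.23 without isoniazid animal 4 (adjusted p = 0.0235). Slc27a5, the ligase that activates bile acids for conjugation, fell by 0.31 (adjusted p = 0.0372), with 12.70 to 12.83 in the vehicle and 12.42 to 12.56 in the isoniazid livers. Cyp7a1, whose enzyme sets the rate of bile acid production from cholesterol, differed by 0.67 (adjusted p = 0.492). Cyp8b1, the sterol 12-hydroxylase of the cholic acid branch, was higher in all 4 isoniazid livers, at 12.40 to 12.87 against 11.68 to 12.07, but its difference of 0.68 did not pass (adjusted p = 0.154). Nr0b2, the repressor SHP that bile acids induce, differed by -1.30 (adjusted p = 0.0895), with 6.16 in isoniazid animal 4 and 7.27 to 8.55 in the other isoniazid livers. The list's median was -0.10.

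Alas1, whose enzyme uses pyridoxal phosphate to start heme synthesis, was the 1 that passed among 25 vitamin B6 genes and among 15 heme genes. None of either list fell, and 0.485% of all genes passed. The vehicle levels of Alas1 were 9.46, 10.49, 8.90 and 9.28 and its isoniazid levels 10.48, 11.27, 10.37 and 11.95. Vehicle animal 2 overlapped the isoniazid group by a narrow margin, and Alas1 rose by 1.48 (SE 0.32, 2.79-fold, adjusted p = 0.0084). Without isoniazid animal 4 the difference was 1.17 (adjusted p = 0.188). The vehicle mean of 9.53 was the lowest of the 31 strains, whose other 30 averaged 11.09. Fech, the ferrochelatase that ends the pathway, differed by -0.12 (adjusted p = 0.617). Of the other pyridoxal phosphate enzymes, the aspartate aminotransferase Got1 differed by 0.67 (adjusted p = 0.437), the taurine enzyme Csad by -0.80 (adjusted p = 0.368) and the kynurenine aminotransferase Kyat1 by -0.74 (adjusted p = 0.0671). Kyat1 had groups that did not overlap, at 7.54 to 7.84 with isoniazid against 8.35 to 8.56 with vehicle. Psat1, the serine synthesis aminotransferase, was near the bottom of the scale in all 8 livers, at 1.93 to 2.66.

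None of the 16 genes of isoniazid metabolism passed and 2 of them were above 0, with a median of -0.31. Over all genes 9367 of 18146 were above 0, with a median of 0.01. Cyp2e1 was 13.60 to 13.63 in the vehicle and 13.41 to 13.60 in the isoniazid livers, a difference of -0.10 (adjusted p = 0.456) near the top of the array's range. Nat2, the mouse arylamine acetyltransferase, differed by 0.25 (adjusted p = 0.50). The glutathione transferases Gstm1 and Gsta3 each differed by -0.63 (adjusted p = 0.0534 and 0.13), and neither had overlapping groups. Isoniazid animal 4 had the lowest Gsta3 level, 10.11 against 11.20 to 11.40 in the other 3 isoniazid livers. The glutathione synthesis genes Gclc and Gclm differed by -0.33 and -0.19 (adjusted p = 0.42 and 0.513), and none of the 26 NRF2 and glutathione genes passed.

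Several other enzymes of drug and small-molecule metabolism fell. Gstt3, a theta-class glutathione transferase, was 9.76, 10.16, 9.35 and 9.33 with vehicle and 8.58, 8.53, 9.26 and 7.74 with isoniazid. It fell by 1.12 (SE 0.27, 2.18-fold, adjusted p = 0.0258), with no overlap. Without isoniazid animal 4 Gstt3 differed by -0.86 (adjusted p = 0.266). Inmt, an N-methyltransferase of indoleamines and other small amines, fell by 1.25 (adjusted p = 0.0155), from 10.24 to 11.21 with vehicle to 8.21 to 10.12 with isoniazid, and isoniazid animal 4 was the lowest, without which Inmt differed by -0.83 (adjusted p = 0.317). Cyp2c29, a P450 of drugs and arachidonic acid, fell by 0.69 (adjusted p = 0.0409). Without isoniazid animal 4 it differed by -0.43 (adjusted p = 0.417). Cyp2c29 was the 1 member of 28 CAR and PXR targets that passed, as did 0.485% of all genes. Cyp2b10, the usual marker of the receptor CAR, ranged from 8.35 to 11.67 with vehicle and from 9.22 to 12.22 with isoniazid, and its difference of 0.83 did not pass (adjusted p = 0.452). Hsd11b1, which regenerates active glucocorticoid, fell by 0.49 (adjusted p = 0.0155) and Glud1, the mitochondrial glutamate dehydrogenase, by 0.40 (adjusted p = 0.0138). The groups of Hsd11b1 overlapped. Without isoniazid animal 4 Hsd11b1 did not pass (-0.37, adjusted p = 0.242) and Glud1 did (-0.42, adjusted p = 0.047). Slc25a22, a mitochondrial glutamate carrier, rose by 0.89 (adjusted p = 0.0136), and differed by 0.73 without isoniazid animal 4 (adjusted p = 0.188).

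Genes of hormone signalling passed on both sides. Lepr, the leptin receptor, was 4.14, 3.33, 4.62 and 3.84 with vehicle and 5.73, 5.89, 4.41 and 8.23 with isoniazid. It rose by 2.08 (SE 0.53, 4.23-fold, adjusted p = 0.0328), but isoniazid animal 3 lay within the vehicle range. Without isoniazid animal 4 the difference was 1.36 (adjusted p = 0.385). With the gene's probe sets averaged Lepr differed by 0.97 (adjusted p = 0.181). The SD of its 4 isoniazid values was 1.59. Igfbp2, a binding protein of insulin-like growth factors, rose by 0.88 (adjusted p = 0.0291), and Ghr, the growth hormone receptor, fell by 0.53 (adjusted p = 0.0447), with -0.33 for Ghr without isoniazid animal 4 (adjusted p = 0.421). In both genes isoniazid animal 3 overlapped vehicle animal 4. Igfbp2 and Ghr were the 2 that passed of 17 growth hormone, sex-dependent and thyroid-responsive genes, whose median was -0.24. Over all genes 0.485% passed. Ghr did not pass when its probe sets were averaged (adjusted p = 0.213).

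The proteasome and heat shock lists were added with the rises of these livers known, so their counts are a description and no independent evidence of direction. All 37 measured proteasome genes were above 0 in SJL/J liver, 8 rose, none fell, and 21 had isoniazid values wholly above the vehicle values. Over all genes 0.347% rose, 3.44% lay wholly above and 9367 of 18146 were above 0. The list's median was 0.38 against 0.01 over all genes. The 8 were the 20S core subunits Psma1, Psma2, Psma5 and Psmb2, the 19S subunits Psmd4, Psmd13 and Psmd14, and the assembly chaperone Pomp, with rises of 0.39 to 0.74. When a gene's probe sets were averaged, Psma1, Psma5, Psmd4 and Psmd13 did not pass (adjusted p between 0.161 and 0.232), and the probe sets of Psmd4 ranged from -0.26 to 0.54. Psmd14, the subunit that cuts ubiquitin chains from substrates, was 8.63, 8.55, 8.67 and 8.09 with vehicle and 9.14, 9.09, 9.08 and 9.58 with isoniazid. The 3 isoniazid livers other than animal 4 lay close together above every vehicle liver, and Psmd14 rose by 0.74 (SE 0.15, 1.67-fold, adjusted p = 0.00344). The mean over the 37 genes was 9.39, 9.41, 9.43 and 9.20 with vehicle and 9.56, 9.64, 9.62 and 10.00 with isoniazid. The highest mean was thus in isoniazid animal 4 and the lowest in vehicle animal 4, yet the other 3 livers of each group were also apart. Without isoniazid animal 4 none of the 37 passed, all 37 stayed above 0 and the median was 0.26. Without vehicle animal 4, 1 of the 37 passed, 34 were above 0 and the median was 0.32. Without both animals numbered 4, 35 of 37 were above 0 and the median was 0.22.

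Chaperones of the ER and of the cytosol were also highest in isoniazid animal 4 and lowest in vehicle animal 4, by the mean of each list. Of 24 genes of ER folding and the unfolded protein response, 2 rose (0.347% of all genes did), none fell and 22 were above 0, with a median of 0.37. Over all genes 9367 of 18146 were above 0. Calr, calreticulin, which holds glycoproteins in the ER until they fold, was 9.70, 9.40, 9.77 and 9.84 with vehicle and 10.27, 10.34, 10.45 and 11.27 with isoniazid. The groups did not overlap, and Calr rose by 0.91 (SE 0.21, 1.87-fold, adjusted p = 0.0156). Pdia6, a disulfide isomerase, rose by 0.70 (adjusted p = 0.0328), but its other probe set changed by -0.03. Sdf2l1, an ER chaperone cofactor, was 5.13 to 5.59 with vehicle and 6.18, 6.22, 6.56 and 8.64 with isoniazid, a difference of 1.49 that did not pass (adjusted p = 0.0842). Of 26 cytosolic heat shock genes 3 rose and none fell: Ahsa1, an activator of HSP90, by 0.61 (adjusted p = 0.0166), Bag3, a cofactor of HSP70, by 0.69 (adjusted p = 0.0323), and the co-chaperone Dnajb2 by 0.74 (adjusted p = 0.0271), which was 0.48 without vehicle animal 4. Ahsa1 did not pass when its probe sets were averaged (0.24, adjusted p = 0.339). That list's median was 0.30, and over all genes 0.347% rose. The ER list's mean was 9.35, 9.38, 9.39 and 10.09 with isoniazid against 8.93 to 9.28 with vehicle. Without vehicle animal 4, 1 ER member and no heat shock member passed. Without isoniazid animal 4 no member of either list passed, and the medians were 0.29 for the ER and 0.14 for the heat shock genes. Without both animals numbered 4 they were 0.17 and 0.08.

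The ER genes were also set beside their promoters, taken from RefSeq on mouse build GRCm38.p6. The 250 bases before each start were searched. The ER stress response element, searched on both strands as CCAAT and CCACG with 9 bases between them, was found in 8 of the 20 ER members that had a promoter there (40%) and in 0.13% of the 27025 genes with a promoter. The antioxidant response element, TGAC and GC with 3 bases between, was in 5 of 30 proteasome members (16.7%) against 11.5% of genes, and the heat shock element, TTC, GAA and TTC with 2 bases between each, in 1 of 22 heat shock members (4.55%) against 0.514%. The stretches of 100 bases below are shown for the 2 members that rose and for 2 other carriers, Hspa5 and Creld2. Hspa5, the chaperone BiP, differed by 0.54 (adjusted p = 0.299) and Creld2, a secreted ER protein, by 0.97 (adjusted p = 0.262). Each is written 5′ to 3′ along the gene's strand, and the capitals mark the element, which reads in reverse complement in Calr and Creld2. The positions are chr8:84847039-84847138 on the minus strand for Calr, chr12:17266446-17266545 on the plus strand for Pdia6, chr2:34771980-34772079 on the plus strand for Hspa5 and chr15:88819475-88819574 on the plus strand for Creld2.
Calr: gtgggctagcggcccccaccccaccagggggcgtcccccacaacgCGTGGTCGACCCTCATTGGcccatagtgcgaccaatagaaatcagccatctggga
Pdia6: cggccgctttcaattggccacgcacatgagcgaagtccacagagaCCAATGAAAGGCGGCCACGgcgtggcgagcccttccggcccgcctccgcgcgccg
Hspa5: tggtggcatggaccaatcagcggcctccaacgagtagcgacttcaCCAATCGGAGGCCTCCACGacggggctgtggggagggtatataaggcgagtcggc
Creld2: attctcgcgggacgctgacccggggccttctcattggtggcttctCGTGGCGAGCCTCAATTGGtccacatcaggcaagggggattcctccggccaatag
The spacer between the 2 ends of the element differs in all 4. A match describes the letters of the window and says nothing of binding in these livers. The shares describe lists put together by function and say nothing of the response to isoniazid.

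**Figure D3:**
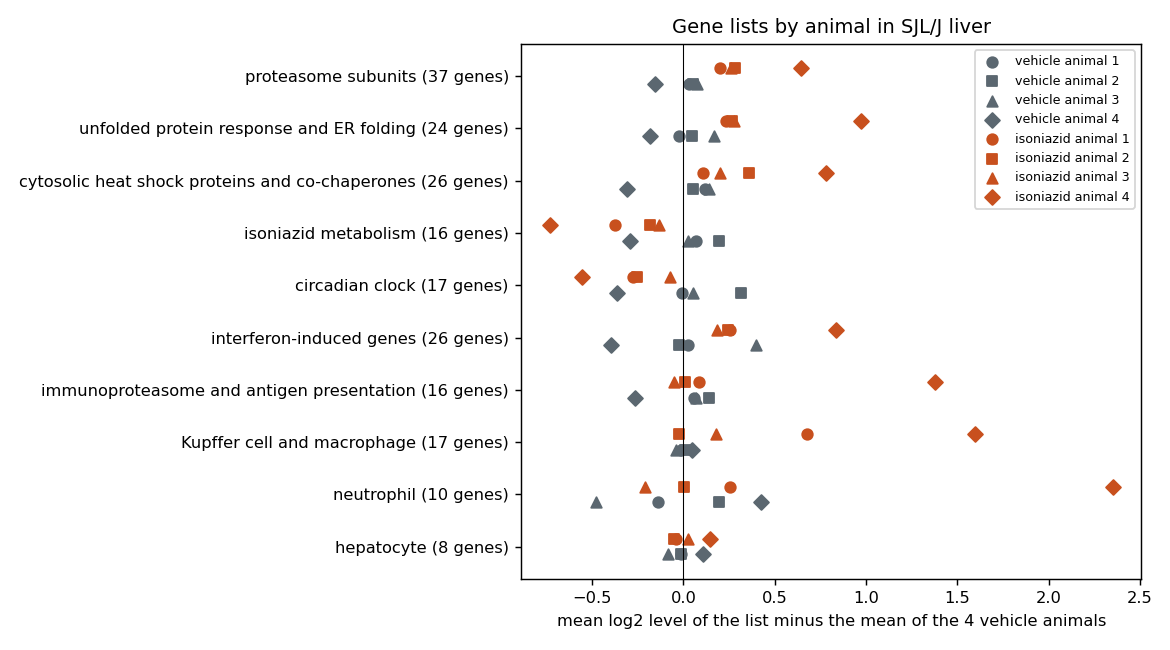
Each point is the mean log2 level of a gene list in 1 SJL/J liver, minus the mean of the 4 vehicle livers (vehicle grey, isoniazid orange, symbols by animal). Isoniazid animal 4 is the highest liver for the proteasome, ER, heat shock, interferon, antigen-presentation, macrophage and neutrophil lists and the lowest for the isoniazid metabolism and clock lists, while the hepatocyte list stays between 13.23 and 13.46.

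Of 17 circadian clock genes 2 fell (0.138% of all genes did) and none rose. Dbp, a clock output factor whose liver level swings widely over the day, was 7.33, 8.98, 7.77 and 7.13 with vehicle and 6.08, 5.97, 7.03 and 5.21 with isoniazid. All isoniazid livers were below all vehicle livers, and Dbp fell by 1.73 (SE 0.44, 3.32-fold, adjusted p = 0.0328). Its relative Tef, of the same PAR bZIP family, was 8.76, 8.98, 8.63 and 8.90 with vehicle and 8.26, 7.89, 8.60 and 7.65 with isoniazid, and fell by 0.72 (SE 0.17, 1.65-fold, adjusted p = 0.0205). The clock gene Per3 was lower in all 4 isoniazid livers, at 4.72 to 5.15 against 5.37 to 6.45, but its difference of -0.93 did not pass (adjusted p = 0.148). Nr1d2, the repressor REV-ERB beta, differed by -0.51 (adjusted p = 0.211). The list's median was -0.26, and 4 of the 17 members were above 0, against 9367 of 18146 over all genes. Neither Dbp nor Tef passed without isoniazid animal 4 (adjusted p = 0.257 and 0.241), and with scan date as a term Dbp did not pass (adjusted p = 0.0718). With its probe sets averaged Tef did not pass (-0.41, adjusted p = 0.145). The hour of day at which each liver was taken is not given in the sources used here, and its part in these values was not tested.

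The E-box CACGTG, the site that clock activators bind, was found in 5 of 15 clock members with a promoter (33.3%) and in 6.86% of all genes with a promoter, again on either strand. That share too describes a list put together by function and not the response to isoniazid. Tef is shown since it fell and carries the motif at both of its annotated starts, on the plus strand of GRCm38.p6 at chr15:81802501-81802600 and chr15:81811231-81811330. The capitals mark the motif.
Tef start 1: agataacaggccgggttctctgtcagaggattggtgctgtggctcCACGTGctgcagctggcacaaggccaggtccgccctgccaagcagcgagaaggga
Tef start 2: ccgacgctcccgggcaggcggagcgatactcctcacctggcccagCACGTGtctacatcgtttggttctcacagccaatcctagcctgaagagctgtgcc

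Further rises were found outside the groups described so far. Abhd4, a lipase of N-acyl phospholipids, had the smallest p of all genes in SJL/J. It was 9.35, 9.26, 9.44 and 8.84 with vehicle and 9.91, 9.90, 9.90 and 10.48 with isoniazid. It rose by 0.83 (SE 0.13, 1.77-fold, adjusted p = 8.48e-05), and by 0.68 without isoniazid animal 4 (adjusted p = 0.0198), with no overlap. Oga, which removes O-linked N-acetylglucosamine from proteins, was 7.97, 7.63, 8.06 and 7.06 with vehicle and 8.44, 8.54, 8.47 and 8.47 with isoniazid. The isoniazid values were close together and all above the vehicle values, and Oga rose by 0.80 (adjusted p = 0.00454). Without vehicle animal 4 Oga did not pass (0.60, adjusted p = 0.127). It was the 1 of 14 hexosamine and sialic acid genes that passed, as did 0.485% of all genes. The largest of its probe-set changes was 0.80 and the smallest 0.12. Tubb2a, a beta-tubulin, was 6.12 to 7.67 with vehicle and 7.67 to 9.30 with isoniazid, so that the groups touched. It rose by 1.62 (3.07-fold, adjusted p = 0.0136), and by 1.79 without isoniazid animal 4 (adjusted p = 0.0235). Without vehicle animal 4 Tubb2a did not pass (1.38, adjusted p = 0.114). Gtf2e1, a subunit of the general transcription factor TFIIE, rose by 1.35 (adjusted p = 0.00555), but its probe sets ranged from -0.30 to 1.35. When a gene's probe sets were averaged, Oga, Tubb2a and Gtf2e1 did not pass (adjusted p = 0.0561, 0.141 and 0.14). Cgref1, a secreted calcium-binding protein, rose by 1.47 (adjusted p = 0.0136), and Cycs, cytochrome c, by 0.50 (adjusted p = 0.0238). Cycs did not pass with its probe sets averaged (0.47, adjusted p = 0.354). The predicted genes 2010003K11Rik and 1810055G02Rik rose by 1.29 and 1.06 (adjusted p = 0.0372 and 0.0155). Eef1akmt1 rose by 0.97 (adjusted p = 0.0392), but its probe sets ranged from -0.25 to 0.97.

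The remaining falls with groups that did not overlap included transporters, membrane proteins and a complement protease. Slc35d1, a transporter of UDP-sugars into the ER, fell by 0.65 (adjusted p = 0.00841), from 9.02 to 9.30 with vehicle to 8.13 to 8.80 with isoniazid. Slc16a12, a monocarboxylate transporter family member that carries creatine, fell by 0.68 (adjusted p = 0.0305). Masp1, a protease of the lectin pathway of complement, fell by 0.71 (adjusted p = 0.0179). Mtss1, an actin-binding scaffold, fell by 0.63 (adjusted p = 0.0265), Tm4sf4, a tetraspanin-like membrane protein, by 0.60 (adjusted p = 0.0155), and Adam11, a metalloprotease family member, by 0.79 (adjusted p = 0.0178). None of these 6 had overlapping groups, and none passed without isoniazid animal 4 (adjusted p between 0.14 and 0.241). For Masp1 and Mtss1 another probe set changed by 0.04 and 0.03. Mfsd4b1 had the smallest p of all falls, and it fell by 0.84 (adjusted p = 0.000889) with overlapping groups. Plekhh3 fell by 0.53 and Ppef2 by 0.63 (adjusted p = 0.0136 and 0.0348) without overlap. Ppef2 was only 2.57 to 3.31 with vehicle. Mfsd4b1, Plekhh3 and Ppef2 did not pass without isoniazid animal 4 (adjusted p between 0.118 and 0.182).

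The comparison with the other 30 strains, which share no array with SJL/J, asks which of these changes were general. Of the 63 genes that rose in SJL/J, the mean change over the other 30 strains was above 0 for 53, and 43 (68.3%) rose in that mean at an adjusted p under 0.05, as did 9.97% of all genes. Of the 25 that fell, 21 were below 0 in the other strains, and 18 (72%) fell there, as did 10.4% of all genes. Scd1 averaged -1.47 over the other strains, Cyp2c70 -0.64, Cidec 0.98, Apoc2 0.61 and Alas1 0.77, each with the sign of SJL/J. Dgat2 averaged -0.18, and its SJL/J change was the lowest of the 31. Across all 18146 genes the SJL/J changes correlated with the mean of the other strains at r = 0.17, a description over genes that share arrays and are not independent. That was 29th of the 31 strains in rank. Without both animals numbered 4 it was 0.27. SJL/J ranked 15th of 31 in the number of genes that passed, which ran from 0 to 2747 over the strains.

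**Figure D4:**
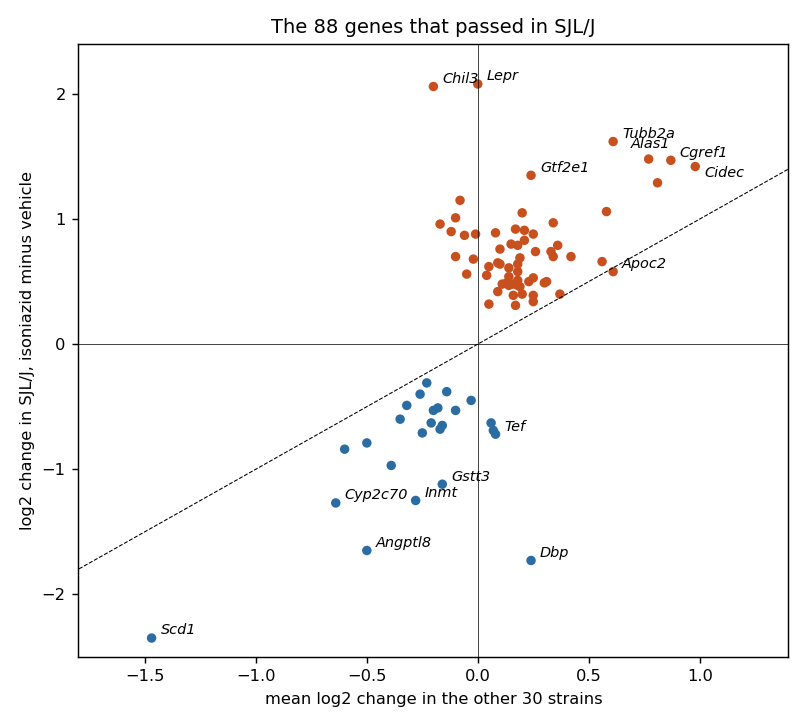
Each point is 1 of the 88 genes that passed in SJL/J, placed by its mean log2 change over the other 30 strains and its log2 change in SJL/J (orange rose, blue fell), with a dashed line of equal change. Most points lie in the corners where both changes have the same sign, 53 of the 63 rises and 21 of the 25 falls, whereas Chil3 and Dbp lie away from them.

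The size of the SJL/J change differed from the mean of the other 30 strains at 12 genes (0.0661% of those tested), 10 higher (0.0551%) and 2 lower (0.011%) in SJL/J, when animals were the replicates. Without the narrow-spread arrays 3 were higher and 7 lower, and without vehicle animal 4, 2 higher and 4 lower. All 12 differences were 1.5-fold or more, and 2201 genes (12.1%) had an unadjusted p under 0.05. Chil3, Casp1, Fermt3, Tlr13 and Ifitm6 among the 10 are known from cells of innate immunity and blood. Chil3, a chitinase-like protein that macrophages and neutrophils secrete, was 3.19, 2.60, 2.78 and 3.72 with vehicle and 4.47, 3.77, 3.63 and 8.65 with isoniazid. The high value belongs to isoniazid animal 4, while isoniazid animals 1 and 2 lay just above the vehicle range and animal 3 within it. Its change of 2.06 stood against -0.20 in the other strains, a difference of 2.26 (adjusted p = 0.000679). The SE of that difference was 0.39, from the spread pooled over all groups, while the SD of the 4 isoniazid livers was 2.38. Chil3 is dim: its vehicle values lie below the array medians of 3.99 to 4.19, so the size of the change is uncertain, and the gene is left out, as are Casp1, Tlr13, Ifitm6 and Mapk8ip3, when the dimmest 40% of genes are removed. Casp1, the inflammasome protease, was 2.98 to 3.46 with vehicle and 4.24, 4.13, 3.60 and 5.08 with isoniazid, and differed from the other strains by 1.13 (adjusted p = 0.0103). Its groups did not overlap, and isoniazid animal 4 was again the highest.

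The other 8 higher genes had adjusted p between 0.0458 and 0.0492. They were Peg3, a paternally expressed imprinted gene (difference 1.49), Fermt3, the integrin activator kindlin-3 of blood cells (1.44), Tlr13, a mouse sensor of bacterial ribosomal RNA (1.23), Ifitm6, of the interferon-induced transmembrane family (1.02), the scramblase Ano6 (0.80), the JNK scaffold Mapk8ip3 (0.73), Abhd4 (0.62) and the phosphatase Dusp3 (0.61). All 10 had the highest change of the 31 strains in SJL/J, a rank that follows largely from how they were picked. Of these, Peg3, Fermt3, Mapk8ip3 and Dusp3 did not pass for the isoniazid effect itself (adjusted p = 0.126, 0.069, 0.067 and 0.0577). Peg3 averaged -0.46 over the other strains. For Fermt3, Peg3, Ano6 and Mapk8ip3 the probe sets disagreed, the lowest changing by -0.14, -0.05, -0.02 and -0.02. The 2 lower genes were Dbp and Tef. Dbp fell in SJL/J against a mean of 0.24 over the other strains, a difference of -1.97 (adjusted p = 0.0458), and Tef against 0.08, a difference of -0.80 (adjusted p = 0.0458). Each was 30th of 31 strains, and the other strains' Dbp changes ran from -2.18 to 2.07. Per3 and Nr1d2 were also 30th, without passing.

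Without isoniazid animal 4 no gene passed this test and 1687 had an unadjusted p under 0.05. In that setting Chil3 differed by 1.09 (adjusted p = 0.373), Casp1 by 0.85 (adjusted p = 0.298) and Dbp by -1.68 (adjusted p = 0.314). With 1 of the vehicle animals 1 to 4 left out, 2, 2, 122 and 6 genes passed, and with isoniazid animal 1, 2 or 3 left out, 7, 36 and 64. With the strain as the unit, that is SJL/J as 1 strain against the spread of the other 30, 1 gene passed (0.00551%), Chil3 (adjusted p = 0.000848), and 1098 (6.05%) had an unadjusted p under 0.05. The next were Ifitm6, Fgl2 and Camp (adjusted p = 0.0535 each), and Dbp was at 0.814. No gene passed this test without isoniazid animal 4, and 1012 had an unadjusted p under 0.05.

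**Figure D5:**
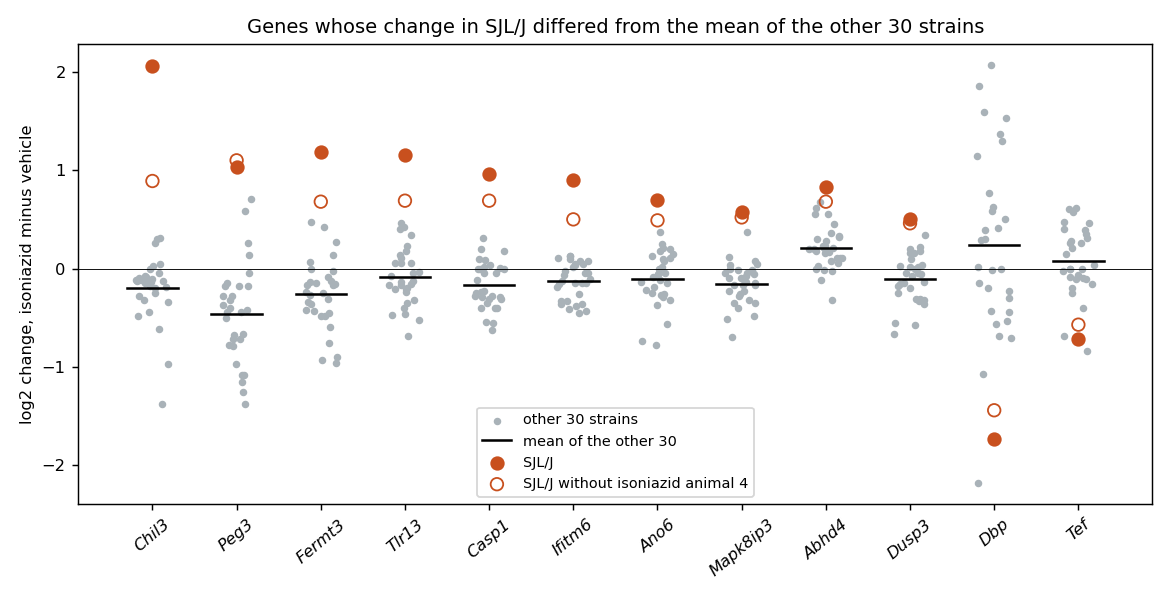
Log2 changes, isoniazid minus vehicle, of the 12 genes whose change in SJL/J differed from the mean of the other 30 strains, with each other strain as a grey point, their mean as a black line, SJL/J as a filled orange circle and SJL/J without isoniazid animal 4 as an open one. SJL/J is the highest strain for 10 genes and 30th of 31 for Dbp and Tef, ranks taken from the values that picked the genes. Without isoniazid animal 4 the Chil3 change is 0.89 in place of 2.06.

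Genes of myeloid cells and of antigen presentation were among those in which isoniazid animal 4 stood farthest apart. The neutrophil genes S100a8, Ngp and Camp were 10.12, 8.23 and 7.80 in this liver, where the other 7 SJL/J livers did not exceed 6.48 for S100a8, 4.53 for Ngp and 5.39 for Camp. Cd74, the invariant chain of class II molecules, was 9.87 against 6.49 to 6.69. The class II chain H2-Eb1 was 10.53 against 6.73 to 7.40, and H2-Aa was 11.32 against 6.90 to 8.27. Marco, a scavenger receptor of macrophages, was 9.38 against 5.63 to 6.16, and the platelet factor Pf4 was 8.38 against 4.20 to 4.93. Outside the immune system, Ppp1r3g, a glycogen-targeting subunit of protein phosphatase 1, was 9.44 against 3.98 to 4.64, and its relative Ppp1r3c was 6.01 against 8.65 to 9.69. Car3, a carbonic anhydrase abundant in mouse liver, was 9.69 against 11.85 to 13.08. These genes are shown as a description, since they were picked for the value of 1 liver. Cd74, H2-Eb1, S100a8 and Camp did not pass for the isoniazid effect (adjusted p = 0.32, 0.306, 0.146 and 0.0889).

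Of the immune lists, no member of the interferon (26 genes), antigen-presentation (16), macrophage (17) or neutrophil (10) list passed. The neutrophil mean was 4.01 to 4.91 with vehicle and 4.74, 4.49, 4.28 and 6.84 with isoniazid. The list's median change was 0.79, and 0.00 without isoniazid animal 4. The antigen-presentation mean was 7.69 to 8.09 with vehicle and 8.04, 7.96, 7.90 and 9.33 with isoniazid, with a median of 0.33 and of -0.01 without that animal. The macrophage mean was 6.86 to 6.95 with vehicle, and isoniazid animals 1 and 3 were also above that, at 7.58 and 7.08, with 6.88 in animal 2 and 8.50 in animal 4. Its median was 0.62, against -0.24 in the other 30 strains, and 0.30 without isoniazid animal 4. Adgre1, the macrophage marker F4/80, was 6.10 to 6.59 with vehicle and 7.28, 6.60, 6.76 and 8.31 with isoniazid, a difference of 0.96 that did not pass (adjusted p = 0.093). The scavenger receptor Cd163 differed by 0.92 (adjusted p = 0.184) and the lysozyme Lyz2 by 0.91 (adjusted p = 0.155). Saa3, an acute phase protein of macrophages, was 8.34 and 8.07 in isoniazid animals 1 and 4, and 5.74 to 6.49 in the other 6 livers. The part of these cells in the genes that passed was not tested.

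In single immune genes that passed, the same liver was the highest. The sensor Samhd1, which breaks down deoxynucleotides, rose by 1.05 (adjusted p = 0.0136), from 4.54 to 5.59 with vehicle to 5.65, 5.84, 6.04 and 6.92. H2-M3, a class Ib molecule that presents formylated peptides, rose by 0.88 (adjusted p = 0.0305), from 4.25 to 4.71 with vehicle to 5.01, 5.07, 5.08 and 6.31. Neither gene had overlapping groups. The arginase Arg2 rose by 1.01 (adjusted p = 0.0379) and the inflammasome adaptor Pycard by 0.87 (adjusted p = 0.0337), both with overlap. Isoniazid animal 4 had 6.30 for Arg2 against 3.41 to 4.68 in the other isoniazid livers, and without it Arg2 was 0.44 (adjusted p = 0.56), H2-M3 0.57 (adjusted p = 0.381) and Samhd1 0.78 (adjusted p = 0.241). The probe sets of Samhd1 ranged from -0.16 to 1.05. With probe sets averaged, Samhd1 was 0.42 (adjusted p = 0.0904) and Pycard 0.22 (adjusted p = 0.375).

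Several genes that moved in the other strains did not pass in SJL/J. The acyl-CoA thioesterases Acot1 and Acot2, targets of PPAR alpha, averaged -1.20 and -1.12 over the other 30 strains and differed by -0.33 and -0.58 in SJL/J (adjusted p = 0.739 and 0.497). Acot1 was 8.90, 9.65, 9.32 and 9.83 with isoniazid against 9.35 to 10.22 with vehicle, and its change was the highest of the 31. Csad averaged -1.41 in the others and -0.80 here. Rsad2, the antiviral protein viperin, averaged -0.81 in the others and 0.07 in SJL/J (adjusted p = 0.936), again the highest of the 31. The interferon list as a whole had a median of 0.31 in SJL/J against -0.33 in the other strains, and 0.05 without both animals numbered 4. Pgm3, of the hexosamine pathway, differed by 0.82 in SJL/J (adjusted p = 0.122) and averaged 0.90 in the others. None of these genes passed in the test of the difference between SJL/J and the other strains.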

How the data were processed

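The 235 livers were hybridised to Affymetrix arrays. The deposited log2 levels of probe sets came from RMA, and the submitters' processing notes name Affymetrix Power Tools, with no version given in the sources used here. They were used as deposited, ranged from 1.15 to 14.65, and give no counts, so the number of arrays limits the precision. Probe sets match a reference genome, and strain variants under a probe can lower a level. A difference within a strain compares animals with the same variants, but a dimmed probe can shrink it.

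Of 44721 probe sets, 34717 carried 1 gene symbol, 872 several, 9072 none and 60 were controls. Each of 18146 genes was read from 1 probe set, and for the 8949 genes with several it was the brightest on average across the 235 arrays. Samples were grouped by their labels into 62 groups of strain and treatment (124 vehicle and 111 isoniazid arrays). All were fitted in 1 model with limma 3.58.1 in R 4.3.3 (lmFit, eBayes, 173 residual degrees of freedom), with two-sided tests and Benjamini-Hochberg adjustment over all genes. Contrasts were isoniazid minus vehicle in SJL/J and that effect minus the mean of the other 30 strain effects. Another fit used 31 strain differences, with SJL/J as 1 strain against the spread of the rest. Exact permutation tests used scipy 1.17.1 in Python 3.11.15. The scripts were tested on simulated data.

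Genes are named by this rule: the 15 largest rises and 15 largest falls among genes that passed without overlap, up to 10 genes each way that differed from the other strains, the 5 smallest p of the strain-unit test, up to 4 members of each list by size of t, and 25 genes always named. Named after their values were seen are Arf4, Golga4, Nisch, Ralgps2, Hsd11b1, Psmd14, Psma1, Psma2, Psma5, Psmb2, Psmd13, Pomp, Ahsa1, Bag3, Dnajb2, Lepr, Arg2, Pycard, Hspa5, Creld2, the vesicle traffic, 14-3-3 and Fh1 genes of the closing section and those singled out in isoniazid animal 4. Mfsd4b1 was also named after its value was seen, and not every gene that the rule picked from the lists is described. The members, 38 gene lists and 2 lists added later (proteasome and heat shock) were chosen with earlier results of these data known. Alternatives covered scan date, a replicate block, centring, probe-set means, dim genes, moderation settings, narrow-spread arrays, strain subsets and each animal left out.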

Additional observations from a re-analysis of the deposited data

Results flagged for a closer look

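A single liver lay far from the other 3 of its group at 21 of the 254 groups of 4 values examined. This was counted by the gap to its nearest neighbour over the group's range. Chance gives about 1 in 20 groups, but many of these genes were named for their values in these same arrays. Genes are also not independent, so the share is a description and no test against chance. Isoniazid animal 4 accounted for 14 of the 21 and vehicle animal 4 for 4. Isoniazid animal 4 was the highest for Chil3 (8.65), the invariant chain Cd74 (9.87), the class II chain H2-Eb1 (10.53), H2-M3 (6.31), Tlr13 (5.69), the interferon-induced GTPase Ifi47 (8.60), the ER cofactor Sdf2l1 (8.64), Psmd14 (9.58), Abhd4 (10.48), the ER genes Hspa5 (12.33) and Creld2 (9.58) and the fumarase Fh1 (12.21). It was the lowest for the fatty acid synthase Fasn, at 7.22 against 8.19 to 8.35, and for the glutathione transferase Gsta3 (10.11). Vehicle animal 4 was the lowest for Gclm (10.56), Psma2 (9.47), Dnajb2 (6.37) and Saa3 (5.74). Vehicle animal 3 was the highest for the GTPase Igtp, at 7.10 against 6.36 to 6.46, and for Arf4 (9.61). The spread of values over the array was widest in isoniazid animal 2, with a standard deviation of 2.324 against 2.277 to 2.279.

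The change in SJL/J differed from the mean change of the other 30 strains, by limma's test of that difference, at the 12 genes described above. The differences were 2.26 for Chil3, 1.49 for Peg3, 1.44 for Fermt3, 1.23 for Tlr13, 1.13 for Casp1, 1.02 for Ifitm6, 0.80 for Ano6, 0.73 for Mapk8ip3, 0.62 for Abhd4 and 0.61 for Dusp3. Those of the clock output genes were -1.97 for Dbp and -0.80 for Tef. With scan date as a term of the model, Chil3 (adjusted p = 0.00463), Casp1 (0.00912), Dusp3 (0.0111), Tlr13 (0.0222), Peg3 (0.0232), Fermt3 (0.0413) and Tef (0.0413) passed again, and Dbp had an adjusted p of 0.0593.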

How the results depend on the processing

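Counts of genes for the SJL/J effect (88), for its difference from the other 30 strains (12) and for the test with the strain as the unit (1) depended on the processing, and where no construction shows it the cause was not tested. Fitted on the 8 SJL/J arrays alone, the effect gave 0 genes (1429 at an unadjusted p under 0.05). That fit has fewer degrees of freedom and takes the spread from these livers alone. Scan date as a term gave 142 and 21, a replicate block 47 and 3, and centred arrays 42, 2 and 2 for the 3 tests. The animal numbers do not pair the groups, since deviations of same-numbered animals correlated at -0.05, 0.11, -0.10 and 0.20. Requiring 1.5-fold left 56 of the effect. The difference gave 27 genes with dim genes left out and 38 over the 22 strains with full groups. The strain-unit test gave 5 with probe-set means, 0 without dim genes (568 unadjusted), 4 with trend and robust moderation, 2 without narrow-spread arrays (where the effect gave 45 higher and 61 lower) and 4 with strains weighted. Leaving out 1 SJL/J animal gave 11 to 287, 0 to 122 and 0 to 18. Without both animals numbered 4 the counts were 0, 0 and 0 (747, 607 and 505 unadjusted), and without the narrow-spread arrays and isoniazid animal 4 they were 2, 0 and 0 (1002 and 650 unadjusted for the last 2).

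Of 121 named genes that were followed, the 70 that passed did not reverse under any alternative. These 70 had passed on the same arrays, which makes a reversal unlikely from the start. Calls were lost by 11 of them with scan date as a term (Dbp, Angptl8, Slc27a5, Glud1, Cyp2c29, Ghr, Hsd11b1, Bag3, Ano6, Ifitm6 and Pycard), 30 with the replicate block, 33 with centred arrays and 27 with probe-set means. Probe-set means ended the calls of Lepr, Tef, Ghr, Pycard, Cycs, Nisch, Slc35d1, Adam11, Cltc, Mlec, Ywhab and Ywhaz, among others. Of the 51 genes that had not passed, Cd36, Fasn, Fgf21, Rsad2, Srebf1, Cd74 and H2-Eb1 changed sign. Without the narrow-spread arrays Cd36 was -0.30, Fasn -0.17, Fgf21 -0.09 and Rsad2 -0.04. Without both animals numbered 4, or without narrow-spread arrays and isoniazid animal 4, Cd36 was -0.18, Fgf21 -0.23, Rsad2 -0.19, Cd74 -0.01 and H2-Eb1 -0.25. With 1 animal left out the ranges were -0.30 to 0.28 for Cd36, -0.17 to 0.43 for Fasn, -0.09 to 0.97 for Fgf21, -0.08 to 0.24 for Rsad2, -0.39 to 0.16 for Srebf1, -0.01 to 1.12 for Cd74 and -0.14 to 1.13 for H2-Eb1.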

Other observations

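Genes of vesicle traffic were among the rises that belong to no list, and they are given as values chosen after they were seen. Arf4, a small GTPase of the Golgi, was 8.67, 8.65, 9.61 and 8.63 with vehicle and 9.71, 9.97, 9.40 and 9.62 with isoniazid. It rose by 0.79 (limma, adjusted p = 0.00299), and vehicle animal 3 overlapped the isoniazid group. The Golgi tether Golga4 rose by 0.62 (adjusted p = 0.0136), and its groups did not overlap. Both passed without isoniazid animal 4 (adjusted p = 0.0198 and 0.047), but Golga4 did not when its probe sets were averaged (adjusted p = 0.32). Without vehicle animal 4 Arf4 passed (0.70, adjusted p = 0.0342) and Golga4 did not (0.45, adjusted p = 0.236). The clathrin heavy chain Cltc and the adaptor subunit Ap1b1 each rose by 0.47 (adjusted p = 0.0409 and 0.0308), and the ER glycan-binding protein Mlec rose by 0.66 (adjusted p = 0.0179). None of these 3 passed without isoniazid animal 4. The 14-3-3 genes Ywhab and Ywhaz rose by 0.32 and 0.49 (adjusted p = 0.0323 and 0.0084), and Fh1, the fumarase of the citric acid cycle, by 0.70 (adjusted p = 0.0084). The groups of Ywhaz overlapped. Without isoniazid animal 4 Ywhab, Ywhaz and Fh1 did not pass (adjusted p = 0.0569, 0.117 and 0.226).

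Of 31 oxidative phosphorylation genes 1 rose, Cycs, and 28 were above 0. Over all genes 0.347% rose and 9367 of 18146 were above 0. The list's median was 0.10 in SJL/J and 0.11 over the other 30 strains. No gene passed among 23 of the integrated stress response, 14 p53 targets, 17 immediate early genes or 21 cell cycle genes, and the medians were -0.04, 0.08, 0.08 and -0.01.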
